A study of Mus musculus with 4 samples.

Results

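The desmosome genes of mouse mammary tumour cells were examined with and without the gene for the kinase Pak1. The set held Dsp, Dsc2, Dsc3, Dsg2, Dsg3, Pkp1, Pkp2, Pkp3, Jup and Perp, chosen by name and matched to the gene names of the non-control array probes. These 10 genes had 14 probes, out of 31829 gene names and 39429 probes on the array. The cells came from mammary tumours of MMTV-Neu mice, whose Neu (Erbb2) oncogene is driven in mammary epithelium by the mouse mammary tumour virus promoter. There were 2 samples labelled Pak1-/- and 2 labelled Pak1+/+, each group from 2 different tumours, so that 1 sample stood for 1 tumour. All 4 had been grown in low calcium medium, serum starved for 3 hours and treated with epidermal growth factor (EGF) for 15 minutes, and there were no cells without EGF or without Neu among them. Each sample was read on 1 single-colour (Cy3) array with probes of 60 bases. With 2 samples a group, the p-values below rest on the spread between these samples, which limma moderated toward that over all tested probes. An exact permutation test of 2 against 2 cannot give a p below 0.333.

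Desmosomes are spot-like junctions that fasten neighbouring epithelial cells to each other and anchor their keratin filaments. Their adhesion is made by cadherins of 2 kinds, desmocollins (Dsc) and desmogleins (Dsg), which bind across the gap between cells in a calcium-dependent way. Inside the cell the armadillo proteins plakoglobin (Jup) and plakophilins (Pkp) bind the cadherin tails, and desmoplakin (Dsp) links this plaque to keratins. In simple and glandular epithelium Dsg2 and Dsc2 are the usual cadherins, and Dsc3, Dsg3 and Pkp1 are best known from basal cells and stratified epithelium such as skin.

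The labels were checked first. The Pak1 probe was not lower in the samples labelled Pak1-/-: its normalized log2 intensity was 12.23 ± 0.031 (SD, n = 2) there and 12.04 ± 0.0020 (SD, n = 2) in Pak1+/+, a log2 difference of 0.19 (adjusted p = 0.070, limma). Under cyclic loess scaling it was higher in the samples labelled Pak1-/- (0.27, adjusted p = 0.027, limma). Whether this probe lies in the deleted part of the gene was not examined, so these data do not check the genotypes, which are given below as labelled. If the labels were exchanged, every direction below would turn. Erbb2, the Neu gene, read 11.93 ± 0.027 in Pak1-/- and 12.23 ± 0.033 in Pak1+/+ (SD, n = 2; adjusted p = 0.020, limma), but its adjusted p was 0.066 without Pak1-/- replicate 1, 0.11 without Pak1+/+ replicate 1 and 0.079 without Pak1+/+ replicate 2. Whether this Erbb2 probe, which lies on mouse chromosome 11, reads the Neu oncogene of these cells was not examined. All 4 arrays lay on 1 slide and were read in 1 scan, with Pak1-/- at positions 1 and 2 and Pak1+/+ at positions 3 and 4, so position and genotype cannot be told apart. The local background was 39.0 to 42.0 intensity units at the median, and 62.2% to 70.4% of probes were well above background. Of the marker lists, 5 of 6 luminal epithelial genes were well above background on all 4 arrays. Of the basal or myoepithelial markers, 5 of 6 were too and Myh11 was on none. Of the leukocyte markers, 5 of 6 were well above background on all arrays, and Ptprc (-0.45, adjusted p = 0.0056) and Adgre1 (-1.05, adjusted p = 0.0011) were lower in Pak1-/-, while Itgam (0.49, adjusted p = 0.11), Cd3e (0.25, adjusted p = 0.086) and Csf1r (0.12, adjusted p = 0.58) did not pass. Of the fibroblast markers, Col3a1, Dcn and Lum were on none. Col1a1 was higher in Pak1-/- (1.12, adjusted p = 0.0051), while Col1a2 (0.025, adjusted p = 0.82) and Pdgfra (-0.16, adjusted p = 0.20, limma) did not pass. The summed linear level of the leukocyte markers was 52045 to 74718 in Pak1-/- and 43438 to 47941 in Pak1+/+, most of it from the Itgam probe, and that of the fibroblast markers 1211 to 1372 and 1004 to 1051. Their part in the desmosome values was not tested.

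For Dsp and Jup, the central linkers of the plaque, the sequences behind the measurement are shown. The first is the second Dsp probe, whose alignment covered 1100 bases (chr13:38285480-38286579, mm9, + strand), more than the 60 bases of the probe itself. The second is the Jup probe (chr11:100238038-100238097, mm9, - strand). Both could be read from their first base without a stop codon. The Jup probe had 2 frames without a stop codon, and which of them codes for the protein was not examined.
Dsp probe: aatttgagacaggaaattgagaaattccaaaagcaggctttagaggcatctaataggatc
Jup probe: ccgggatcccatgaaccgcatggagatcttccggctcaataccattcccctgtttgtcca

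The 250 bases before the start of each of these genes are given from RefSeq (build GRCm38.p6), for Dsp at chr13:38151044-38151293 on the + strand and for Jup at chr11:100397791-100398040 on the - strand. They are shown because 3 kinds of regulators that bind short motifs are among the genes described further on. They were searched on both strands for the E-box of Snail factors (CAGGTG, other strand CACCTG), the grainyhead-like motif (AACCNGTT, other strand AACNGGTT) and the core of KLF sites (CACCC, other strand GGGTG). None of these letters were in the Dsp window, and the Jup window held 2 KLF cores, 197 to 193 and 61 to 57 bases before the start, printed in capitals. Of 32851 promoters with windows of the same length, 17.2% held the E-box, 1.79% the grainyhead-like motif and 52% the KLF core. Dsp had 72.4% G and C and Jup 62%, against a median of 52.4%.
Dsp promoter: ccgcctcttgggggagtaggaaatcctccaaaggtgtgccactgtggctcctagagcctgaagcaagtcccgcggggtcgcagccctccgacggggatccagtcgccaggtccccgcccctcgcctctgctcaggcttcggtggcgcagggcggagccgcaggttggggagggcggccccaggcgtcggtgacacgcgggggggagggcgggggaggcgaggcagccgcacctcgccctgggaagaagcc
Jup promoter: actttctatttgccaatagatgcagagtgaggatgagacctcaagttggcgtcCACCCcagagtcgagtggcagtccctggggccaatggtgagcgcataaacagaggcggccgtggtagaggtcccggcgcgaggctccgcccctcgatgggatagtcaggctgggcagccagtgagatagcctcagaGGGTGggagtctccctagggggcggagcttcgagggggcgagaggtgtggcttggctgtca

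The desmosome genes moved in both directions. Of the 10 genes, 9 were well above background on at least 2 arrays and were tested (12 probes). By the brightest probe of each gene, 2 were lower in Pak1-/- (Dsc2 and Dsg3), 2 were higher (Pkp2 and Dsp) and 5 did not pass the adjusted p of 0.05 (Dsg2, Pkp1, Pkp3, Jup and Perp). Among all 21969 genes tested, 51.0% passed in either direction, 22.8% higher and 28.2% lower, so that 4 of 9 was no larger a share than in the array as a whole. The 4 values separated the groups in 6 of the 9 genes, against 77.6% of all genes. Both genes that fell changed at least 2-fold, which 12.6% of all genes did while passing the test. The median difference over the 9 genes was -0.043 on the log2 scale and -0.055 over all genes, and the median size of the difference, whatever its sign, was 0.124 and 0.323. In a bulk sample, fewer cells of a type and less RNA per cell cannot be told apart.

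**Figure D1:**
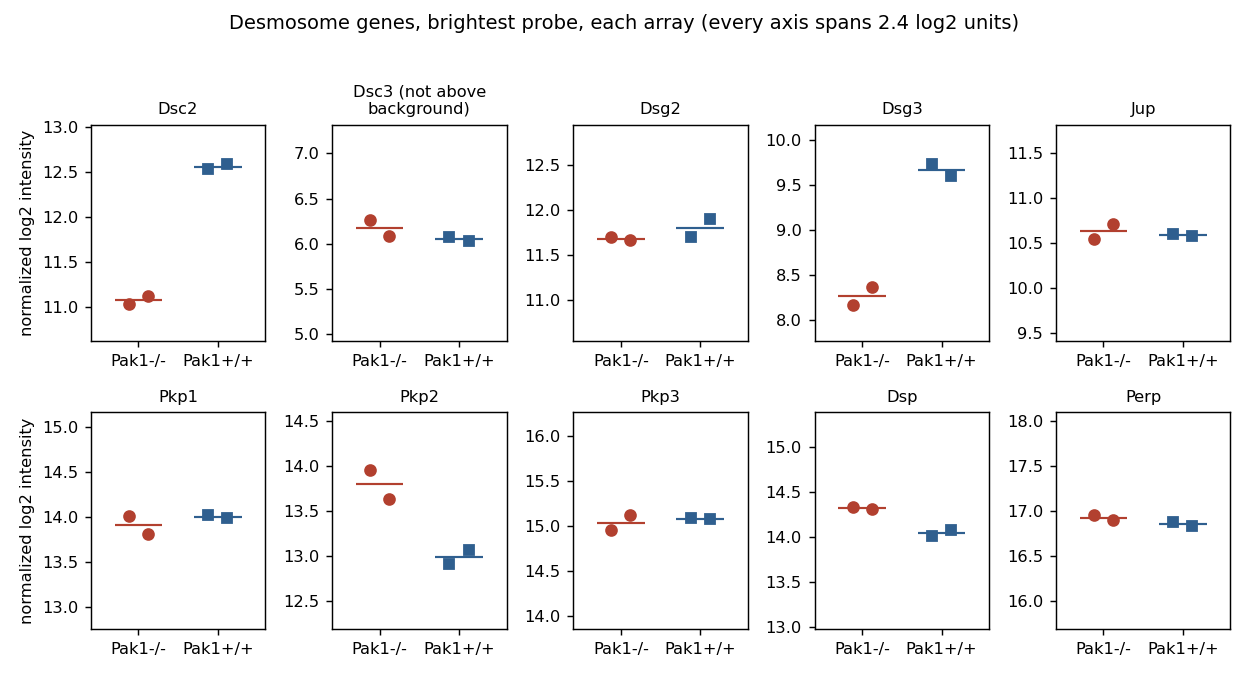
Normalized log2 intensity (y axis) of the brightest probe of each desmosome gene on every array, with a point per sample and a panel per gene. The Pak1-/- samples lie below both Pak1+/+ samples for Dsc2 (11.04 and 11.12 against 12.53 and 12.58) and Dsg3, and above them for Pkp2 and Dsp.

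Among the cadherins, the desmocollin Dsc2 fell. Its probe (A_55_P1965303, chr18:20189299-20189358, mm9) read 11.04 and 11.12 in Pak1-/- and 12.53 and 12.58 in Pak1+/+. The groups lay far apart, with replicates of one group within 0.1 of each other. The log2 difference was -1.48 (SE 0.07, 95% interval -1.67 to -1.28), a 2.78-fold lower level in Pak1-/- (adjusted p = 0.00032, limma).

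The desmoglein Dsg3, the target of autoantibodies in pemphigus vulgaris, was also lower in Pak1-/-. Its brighter probe (A_52_P259402, chr18:20698528-20698587) read 8.16 and 8.37 in Pak1-/- and 9.72 and 9.59 in Pak1+/+, a log2 difference of -1.39 (SE 0.10, 95% interval -1.67 to -1.12), or 2.63-fold (adjusted p = 0.00089, limma). A second probe about 1 kb further along the gene (A_55_P2163003, chr18:20699734-20699793) read 7.61 and 7.81 against 8.55 and 8.68, a difference of -0.91 (SE 0.10), or 1.88-fold (adjusted p = 0.0025, limma). Both Dsg3 probes gave the same direction, and on neither did the groups overlap, which was so for 78.2% of all tested probes.

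Dsg2, the desmoglein found in nearly all tissues with desmosomes, did not pass the test on either of its probes. The brighter (A_51_P249848, chr18:20761177-20761236) read 11.70 and 11.66 in Pak1-/- and 11.70 and 11.91 in Pak1+/+, with an interval of the difference from -0.37 to 0.12 (adjusted p = 0.33, limma). For the other (A_52_P88091, chr18:20737628-20737687) the interval ran from -0.20 to 0.28. Changes of the size seen in Dsc2 and Dsg3 lay outside both intervals. The desmocollin Dsc3 gave no usable level: its probes (A_55_P1999483, chr18:20124142-20124201, and A_66_P138055, chr18:20122029-20124146) stayed below the scanner software's detection limit (well above background) on all 4 arrays. The mean signals of its spots were 53.1 to 61.6 intensity units over a local background of 39.0 to 44.5, and no fold is given.

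**Figure D2:**
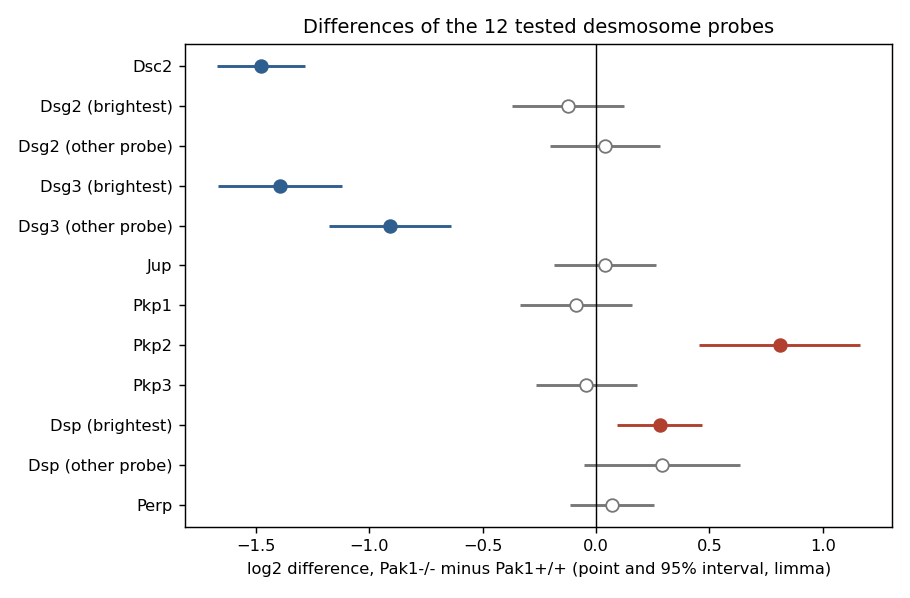
Log2 difference, Pak1-/- minus Pak1+/+ (x axis), of each of the 12 tested probes, as a point with its 95% interval from limma. Dsc2 and both Dsg3 probes lie left of zero, Pkp2 and the brighter Dsp probe lie right of it, and the intervals of the other 7 probes include zero.

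All 4 member cadherins lie in the desmosomal cadherin cluster of chromosome 18, where the desmocollin and desmoglein genes sit side by side. The array had 17 probes over the 639.2 kb from Dsc3 to Dsg2 (chr18:20122029-20761236), of which 8 were tested. None of these passed the test upward and 3 passed downward, the probes of Dsc2 and Dsg3 described above, where 23.3% of all tested probes passed upward and 28.6% downward. The cluster was thus not uniform: Dsg2 at one end did not pass while Dsg3, the gene before it, fell. Of the epidermal cadherins in between, Dsc1, Dsg1a, Dsg1b and Dsg4 were not well above background, and Dsg1c read 8.01 in Pak1-/- and 8.45 in Pak1+/+ on average (log2 difference -0.44, SE 0.16, adjusted p = 0.080, limma), with a call as lower in the fits with a replicate block and without Pak1-/- replicate 1. A probe that the array describes as a Desmoglein-3 precursor but names only by a transcript was detected on none of the 4 arrays, and one described as similar to desmoglein 2 differed by 0.16 (adjusted p = 0.32, limma). Within 1000 kb of the cluster the array had 12 probes, all beyond Dsg2, and 9 were tested, of which 4 were higher and 2 lower in Pak1-/-.

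**Figure D3:**
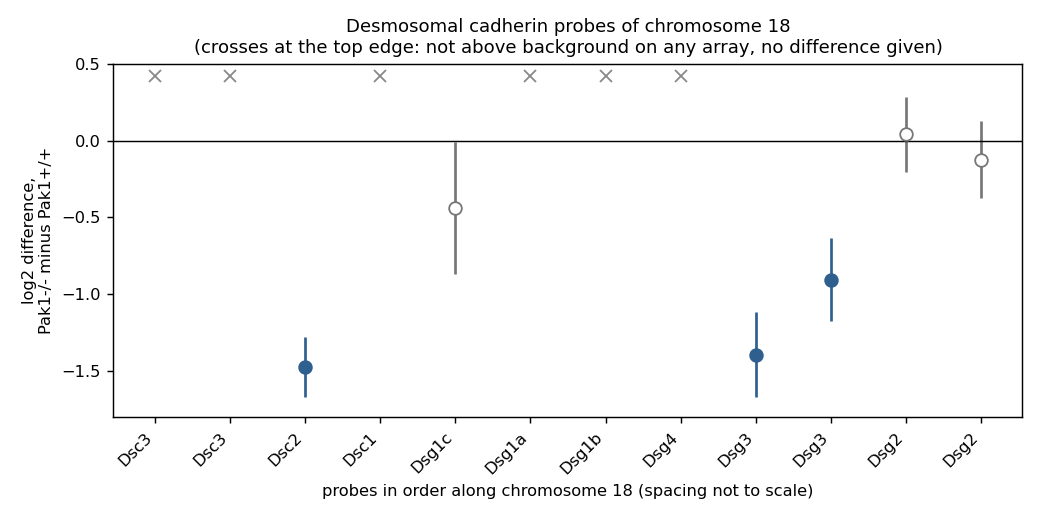
Log2 difference, Pak1-/- minus Pak1+/+ (y axis), of the desmosomal cadherin probes in their order along chromosome 18, with crosses at the top edge for probes not above background. The 3 probes that passed the test belong to Dsc2 (-1.48) and Dsg3 (-1.39 and -0.91).

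Of the armadillo proteins of the plaque, the plakophilin Pkp2 rose in Pak1-/-. Pkp2, which binds desmoplakin and is widely expressed in simple epithelium and heart, read 13.96 and 13.64 in Pak1-/- and 12.91 and 13.06 in Pak1+/+ (A_51_P225427, chr16:16272648-16272707). The 2 samples of either group differed more for Pkp2 than for most other members, with an SD of 0.23 in Pak1-/- and 0.11 in Pak1+/+, and still the groups did not overlap. Its log2 difference was 0.81 (SE 0.13, 95% interval 0.46 to 1.17), 1.75-fold higher (adjusted p = 0.0079, limma).

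The remaining armadillo members did not pass the test. Pkp1, the plakophilin of stratified epithelium, read 14.01 and 13.81 in Pak1-/- and 14.02 and 13.99 in Pak1+/+ (A_51_P151732, chr1:137768027-137768086), with an interval of -0.34 to 0.16. Pkp3, a plakophilin of most epithelia, read 14.96 and 15.12 against 15.09 and 15.08 (A_55_P2129578, chr7:148276140-148276199), with an interval of -0.27 to 0.18. Neither difference exceeded the spread between replicates, and the sign of both turned under cyclic loess scaling. Jup, shared by desmosomes and adherens junctions and the probe printed above, read 10.55 and 10.71 in Pak1-/- and 10.60 and 10.57 in Pak1+/+, with an interval of -0.18 to 0.26. The interval of each of these 3 genes leaves out a 2-fold change in either direction.

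Desmoplakin, the link to keratin filaments, was slightly higher in Pak1-/-. Its brighter probe (A_51_P101460, chr13:38290121-38290180) was printed in 10 spots per array and read 14.33 and 14.30 in Pak1-/- and 14.00 and 14.07 in Pak1+/+. The groups did not overlap, but the difference was only 0.28 (SE 0.07, 95% interval 0.094 to 0.47), or 1.21-fold (adjusted p = 0.028, limma). Its 10 spots varied with an SD of 0.062 to 0.088 on an array. The call did not hold when either sample of either group was left out (adjusted p of 0.065 to 0.15), nor under scaling to the 75th percentile of the processed signal (0.21, adjusted p = 0.094). The other Dsp probe, with its sequence above, read 8.69 and 8.60 against 8.19 and 8.52, and its difference of 0.29 did not pass (interval -0.055 to 0.63, adjusted p = 0.13), and it ranged from 0.12 without Pak1+/+ replicate 1 (adjusted p = 0.44) to 0.45 without Pak1+/+ replicate 2 (adjusted p = 0.039, limma).

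Perp, a membrane protein of desmosomes that is a target of p53 and p63, was bright on every array and not saturated on any. It read 16.95 and 16.90 in Pak1-/- and 16.87 and 16.84 in Pak1+/+ (A_51_P317941, chr10:18576697-18576756). The interval of its difference ran from -0.11 to 0.25 (adjusted p = 0.45, limma), with the sign turned under 75th percentile scaling.

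**Figure D4:**
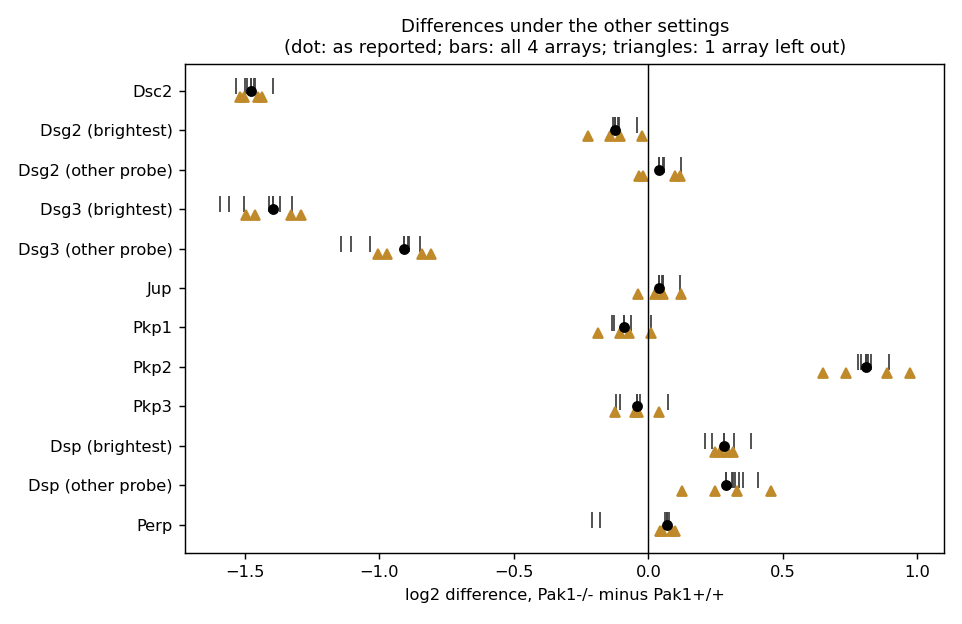
Log2 difference, Pak1-/- minus Pak1+/+ (x axis), of each tested desmosome probe as reported (dot), with bars for its range over other settings on all 4 arrays and triangles for fits that left out 1 array. Dsc2 stays between -1.53 and -1.39 and Pkp2 between 0.65 and 0.97, while Perp, Pkp1, Pkp3, Jup and a Dsg2 probe lie on both sides of zero.

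Other junction genes were examined in lists by function. Of 8 further desmosome and plakin genes, 4 were tested, of which 3 fell and none rose, where 28.2% of all genes fell and 22.8% rose. The 3 were named after their values were seen: periplakin (Ppl, -0.58, adjusted p = 0.0039) and envoplakin (Evpl, -0.57, adjusted p = 0.0050), plakins of the cornified envelope that also bind desmosomes, and the plakophilin-related Pkp4 (-0.54, adjusted p = 0.0041, all limma). The median difference of the 4 tested genes, which include Dsg1c, was -0.55, beside -0.055 over all genes.

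Adherens junction genes, whose classical cadherins also need calcium, had 5 of 10 tested genes higher and 1 lower, with a median of 0.29, so that their share passing in either direction was close to the 51.0% of all genes (22.8% higher, 28.2% lower). N-cadherin (Cdh2) read 14.58 and 14.28 in Pak1-/- and 11.34 and 11.43 in Pak1+/+, a log2 difference of 3.05 (SE 0.12, adjusted p = 0.00019, limma). E-cadherin (Cdh1), the main cadherin of epithelium, read 12.81 ± 0.14 and 11.62 ± 0.071 (SD, n = 2), a difference of 1.19 (SE 0.10, adjusted p = 0.0012, limma). P-cadherin (Cdh3) was well above background on 1 array and was not tested. Cdh1 and Cdh2 were therefore higher in the samples in which Dsc2 and Dsg3 were lower. The 1 lower gene, named after its value was seen, was beta-catenin (Ctnnb1, -0.56), a relative of plakoglobin. Hemidesmosome genes, which fasten cells to the basement membrane, had 5 of 8 tested genes higher (22.8% of all genes) and none lower (28.2%), with a median of 0.55, including the laminin-332 chains Lamb3 (1.71, adjusted p = 0.0013) and Lama3 (1.68, adjusted p = 0.00064, limma).

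**Figure D5:**
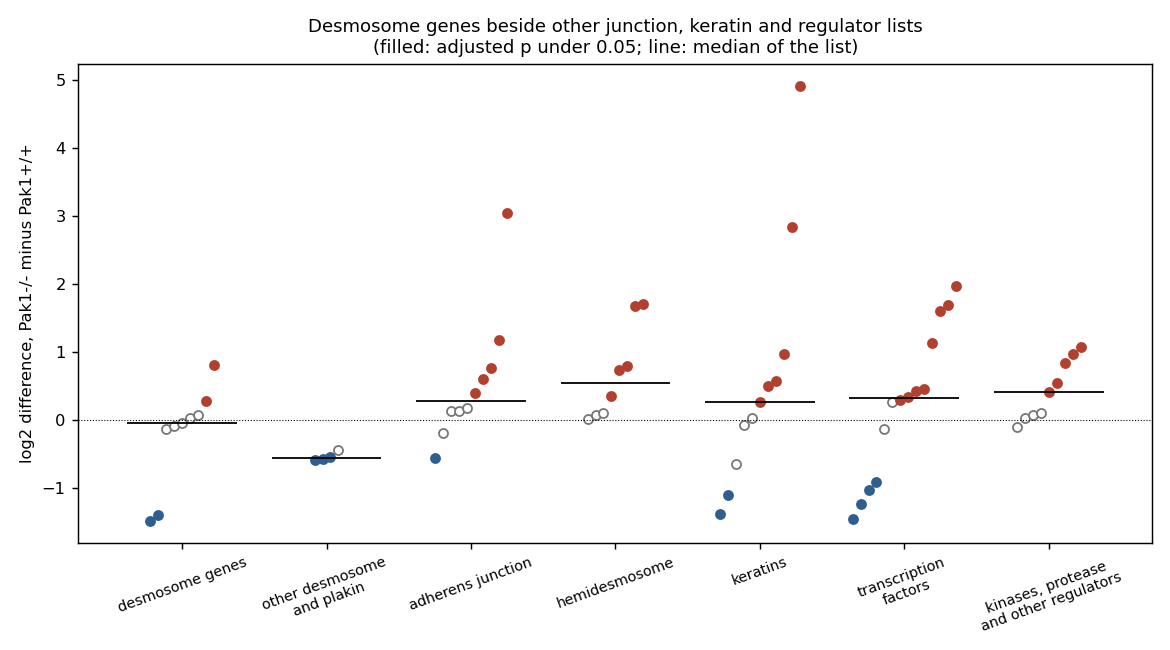
Log2 difference, Pak1-/- minus Pak1+/+ (y axis), of each tested gene in the desmosome set and the 6 other lists, filled where the adjusted p was under 0.05, with a line at each list's median. The desmosome genes centre on -0.043 and the hemidesmosome genes on 0.55.

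The keratins, to which desmosomes are anchored, had 6 of 11 tested genes higher (22.8% of all genes) and 2 lower (28.2%), with a median of 0.27. Krt14 and Krt17, keratins of basal cells, differed by 2.83 (adjusted p = 7.7e-05) and 4.92, and the 2 that fell were Krt10 (-1.38), a keratin of differentiated skin layers, and Krt7 (-1.10), a keratin of glandular epithelium. The basal Krt5 differed by 0.50 (adjusted p = 0.028), a call lost without Pak1-/- replicate 1 (adjusted p = 0.12) or Pak1+/+ replicate 1 (adjusted p = 0.10), and with the processed signal scaled to the 75th percentile (adjusted p = 0.058). The luminal pair Krt8 (0.57, adjusted p = 0.0029) and Krt18 (0.27, adjusted p = 0.027, limma) passed upward, but both depended on the scaling. With the processed or the normexp signal scaled to the 75th percentile, in that order, Krt8 differed by 0.27 (adjusted p = 0.060) and 0.31 (adjusted p = 0.029), and Krt18 by 0.037 (adjusted p = 0.72) and 0.041 (adjusted p = 0.69, limma). Krt18 also lost its call in each fit without 1 sample (adjusted p of 0.059 to 0.14). Of the 6 luminal markers, Krt8, Krt18 and Cdh1 were higher (22.8% of all genes). The other 3 did not pass, with differences of -0.23 for Epcam, -0.35 for Elf5 and -0.64 for Krt19. The summed linear level of all 6 was 965022 to 973381 in Pak1-/- and 757681 to 759921 in Pak1+/+. Most of it came from the Krt8 and Krt18 probes, whose differences depended on the scaling. Beside the fall of Dsc2 and Dsg3, the summed linear level of the basal or myoepithelial markers was 78326 to 83638 in Pak1-/- and 18729 to 19274 in Pak1+/+. In Pak1-/- most of it came from the Krt14 probe, which read 15.93 and 15.89 there and 13.05 and 13.10 in Pak1+/+. All 5 tested genes of this list were higher (22.8% of all genes), and Myh11 was not tested. They differed by 0.43 for Trp63, 0.50 for Krt5, 1.69 for Acta2, 2.83 for Krt14 and 3.84 for Oxtr. The summed linear level of the 4 skin keratinocyte markers was 875 to 941 in Pak1-/- and 1754 to 1842 in Pak1+/+, most of it from the Krt10 probe. Of the 3 tested, Krt10 and Lor were lower (28.2% of all genes) and Flg did not pass (-0.10, adjusted p = 0.26, limma). Krt1 was detected on none of the arrays. The part of these lists in the desmosome values was not tested.

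Of 14 transcription factors of epithelial and mesenchymal states, all of which were tested, 8 were higher (22.8% of all genes) and 4 lower (28.2%) in Pak1-/- (median 0.33). Of the Snail family repressors of epithelial junction genes, Snai1 was higher by 1.69. Snai2 was not well above background in either Pak1+/+ sample and was at least 2.15-fold higher in Pak1-/-. It passed the filter only through the group in which it was high, so its place among the 8 is a description and not a test. Twist1, another factor of mesenchymal states, was lower (-0.90, adjusted p = 0.0011, limma). The Krüppel-like factors went opposite ways, Klf4 by 1.97 and Klf5 by -1.45, and so did the grainyhead-like factors, Grhl1 by -1.23, Grhl2 by 0.30 (adjusted p = 0.036) and Grhl3 by 1.13 (adjusted p = 0.045, limma). Twist1 and Grhl2 were named after their values were seen. The call of Grhl3 was lost without Pak1+/+ replicate 1 (adjusted p = 0.083) or replicate 2 (adjusted p = 0.12), and also without offset, in the authors' table, with no filter and with only 1 array above background required (adjusted p of 0.050 to 0.075), and its difference was 0.64 without Pak1-/- replicate 2. Trp63, the p63 gene of basal cells and a regulator of Perp, differed by 0.43 (adjusted p = 0.019), a call lost without Pak1-/- replicate 1 (adjusted p = 0.077) or Pak1+/+ replicate 2 (adjusted p = 0.089). Of 9 genes for kinases, palmitoylation and proteases that act on desmosomes, 5 were higher (22.8% of all genes) and none lower (28.2%; median 0.42), including protein kinase C alpha (Prkca), which makes desmosomes dependent on calcium (1.07, adjusted p = 0.0024, limma).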

How the data were processed

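Spot intensity values were deposited as 4 single-colour Agilent scanner outputs, 1 per sample, made by the authors with Feature Extraction 9.5 (9.5.3.1 per the file headers), with probe coordinates on mm9. The authors also deposited a table of processed log2 values, with values in 24008 of its 39485 lines, whose offset is not given in the sources used here. That table served as an alternative. The human samples were not analysed here.

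Mean spot intensity was background corrected by normexp (offset 50) on all spots and quantile normalized. Control spots and, among the 43020 other spots, those flagged as outliers were left out, and replicate spots of a probe were averaged. Probes well above background on at least 2 arrays were kept (27229 of 39429, 69.1%). The groups were compared over these probes with limma 3.58.1 (R 4.3.3), using lmFit, eBayes and Benjamini-Hochberg adjustment at 0.05. A gene was represented by its brightest probe. RefSeq accessions of 26055 of 32334 probes were matched to current symbols, and 2 of 10 members had a promoter entry.

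All member probes were named, with Pak1 and Erbb2 for the labels and, per list, at most 6 passing genes with a log2 difference of at least 1 in size, plus Cdh1, Krt5, Krt8, Krt14, Krt18 and Trp63. Ppl, Evpl, Pkp4, Ctnnb1, Grhl2, Twist1 and the cell type markers fall outside this rule. Members and lists were chosen with earlier results of these data known. Scaling, offset, filter, threshold, variance trend, replicate block, probe summary and leaving out each sample were varied. The number of arrays limits the precision.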

Additional observations from a re-analysis of the deposited data

How the results depend on the processing

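With 2 samples a group, small differences depend on each sample, and probes near background carry no level. The count of lower desmosome genes was 2 in every setting run. That of higher genes was 1 and not 2 under 75th percentile scaling of the processed or the normexp signal, at an adjusted p of 0.01, with a replicate block, with the mean over probes and without any 1 sample (1 to 1), and 0 when 2-fold was also required. Their median difference (-0.043) became -0.13 and -0.11 under the 75th percentile scalings, 0.062 under cyclic loess and -0.0015 with no filter, and ran from -0.040 (without Pak1-/- replicate 2) to 0.038 (without Pak1-/- replicate 1) when 1 sample was left out. The sign turned for Perp under the 75th percentile scalings (-0.21 and -0.18) and for Pkp1 (0.012) and Pkp3 (0.074) under cyclic loess. Without 1 sample it turned for Pkp1 (-0.19 to 0.011), Pkp3 (-0.12 to 0.038), Jup (-0.040 to 0.12) and the dimmer Dsg2 probe (-0.036 to 0.12). None of these had passed the test. The cause was not tested.

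Of the list counts, varied by settings chosen after seeing the data, the higher keratins went from 6 to 3 under the processed 75th percentile scaling. At an adjusted p of 0.01, adherens junction genes, transcription factors and keratins had 3 higher each. With 2-fold required the counts of higher genes were 2 for adherens junction, 1 for kinases and proteases, 4 for transcription factors, 2 for hemidesmosome and 2 for keratin genes, and those of lower genes were 0 for adherens junction and 0 for other desmosome genes. Lower adherens junction genes were 2 under both 75th percentile scalings and with a variance trend. Without 1 sample, higher adherens junction genes ranged from 3 (without Pak1+/+ replicate 2) to 5 and higher transcription factors from 4 (without either Pak1+/+ sample; 5 without Pak1-/- replicate 1) to 8.

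Replicate numbers were shared by the groups but did not pair the samples (correlation of deviations -0.028). With the number as a block, 13211 probes passed in place of 14132, and among the desmosome probes 1 call changed, that of Dsp (0.28, adjusted p = 0.058). Krt18 lost its call (0.27, adjusted p = 0.056), and lower genes among the other desmosome and plakin genes went from 3 to 4 of 4 tested, Dsg1c being added, as they did without Pak1-/- replicate 1. Over all probes, 8878 passed at 0.01 and 3413 with 2-fold.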
